A study of Rattus norvegicus with 22 samples.

Results

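The oxidative phosphorylation genes were followed in the liver of male Sprague-Dawley rats, 8 weeks old at the start, kept on 2 diets for 3 or 14 months. They were taken by name: every gene on the array whose name began with Ndufa, Ndufb, Ndufc, Ndufs, Ndufv, Uqcr, Atp5 or Cox4 to Cox8, and the genes Sdha, Sdhb, Sdhc and Sdhd. This gave 89 genes with 112 probes, of 30367 probes in all, and each gene was read from its brightest probe. Of the 89 genes, 88 were bright enough in liver to be tested, and 85 were well above background on all 22 arrays. The exception was Cox8c, which was above background on 2 arrays and was not tested.

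Oxidative phosphorylation is the last stage of respiration in mitochondria. Complex I takes electrons from NADH and complex II takes them from succinate, complex III passes them on to cytochrome c, and complex IV hands them to oxygen, and the proton gradient that complexes I, III and IV build drives ATP synthesis by complex V. Liver is rich in mitochondria and uses this energy for glucose and urea synthesis. Several subunits of complex IV come in a form made in most tissues and a form made mainly in heart and skeletal muscle.

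The control rats of groups CD 3 and CD 14 ate a semi-synthetic diet, and the rats of groups BD 3 and BD 14 ate the same kind of diet with bioactive additions, the BASE-diet, in which salmon fat and more rapeseed oil took the place of most of the lard and linden flower extract, pumpkin puree and a pair of probiotic bacteria were added. CD 3 and BD 3 held 5 rats each after 3 months, and CD 14 and BD 14 held 6 rats each after 14 months. One array was made per rat. The RNA of each rat was labelled with Cy5 and hybridized with a Cy3-labelled common reference, which the labels give as liver RNA of healthy rats aged 10 weeks that took no part in the experiment. The rats of the experiment all started at the same age, so time in the experiment and age of the rats rise together. The dyes were not swapped, and where the methods of the study name Cy3 for the control rats, the sample labels were followed. A log2 ratio below is the signal of a rat over the reference on the same array, and a log2 difference is the difference between the mean log2 ratios of 2 groups.

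By complex, the 88 tested genes fell into 7 core subunits of complex I (such as Ndufs7, Ndufs8 and Ndufv1), 32 genes named as its accessory subunits, 4 of its assembly factors (Ndufaf1 to Ndufaf4), 4 genes of complex II, 7 of complex III, 15 of complex IV and 16 of complex V. The accessory group includes Ndufa4, a protein now placed with complex IV. RefSeq lists 2 of the genes as pseudogenes, Cox6c-ps1 and Atp5hl1, which were counted with complexes IV and V by their names. Another 3 genes, Cox4nb, Atp5s and Atp5sl, encode other proteins and are given apart. RefSeq now calls 18 of the 89 genes by another symbol, among them Atp5b (Atp5f1b), Atp5f1 (Atp5pb), Atp5g2 (Atp5mc2), Atp5i (Atp5me), Atp5sl (Dmac2) and Cox4nb (Emc8). Names of the array are kept here.

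The array reads each gene through an oligonucleotide of 60 bases. The probes of the liver forms Cox6a1 and Cox8a and of their muscle partners Cox6a2 and Cox8b are shown because the forms of each pair read differently on 3 arrays. The capitals mark the longest run of letters that the 2 probes of a pair share, which was 4 bases in both pairs.
Cox6a1, chr12:42533025-42533084 (rn4, + strand): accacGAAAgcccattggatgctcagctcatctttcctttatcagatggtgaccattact
Cox6a2, chr1:187464580-187464639 (rn4, - strand): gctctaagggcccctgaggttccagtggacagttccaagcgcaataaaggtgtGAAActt
Cox8a, chr1:209886158-209886217 (rn4, - strand): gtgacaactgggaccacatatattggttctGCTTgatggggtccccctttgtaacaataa
Cox8b, chr1:201057325-201057384 (rn4, - strand): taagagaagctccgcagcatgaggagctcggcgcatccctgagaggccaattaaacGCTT

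The probes of Ndufa7, which had the largest difference, and of Ndufa5, which had the smallest p over time on the BASE-diet, are shown with no letters marked.
Ndufa7, chr7:16334128-16334187 (rn4, + strand): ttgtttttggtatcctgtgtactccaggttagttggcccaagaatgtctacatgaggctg
Ndufa5, chr4:50649499-50649558 (rn4, - strand): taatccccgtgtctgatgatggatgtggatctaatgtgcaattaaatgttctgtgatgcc

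Genes of this pathway are known to share binding sites for a few transcription factors in their promoters, among them NRF1 and the ETS factor GABP. Of the 89 genes, 76 had a promoter (250 bases before the start of transcription and 50 after it) in the RefSeq table for GRCr8. The NRF1 motif was found on either strand in 15 of the 76 promoters (19.7%), beside 4.25% of all 33469 promoters in the table. Over the 21851 promoters of protein-coding genes the share was 5.67%. The letters CCGGAAG of the GABP site were in 22 (28.9%), beside 8.75% of all and 10.7% of the protein-coding ones. The letters AAGATGGCG of YY1 were in 10 (13.2%, 1.73% of all, 2.07% of the protein-coding). CAAGGTCA, the site of the ERR receptors, was in 4 (5.26%, 1.52% of all, 1.26% of the protein-coding). A match describes the letters and was not tested as a site. The 4 promoters shown are those of Cox4i1, Cox8a and Ndufa5, which were all lower in BD 14 than in BD 3, and of the muscle form Cox6a2, which had none of the 4 motifs. With slide as a block, a fit described below, Cox4i1 and Cox8a were in the other direction, at 0.45 and 0.19. A link of a motif to a difference was not tested. Capitals mark the GABP letters in Cox4i1, the GABP and ERR letters in Cox8a, and the NRF1 letters in Ndufa5, and where a match lies on the other strand the capitals show its reverse complement. The 2 GABP matches of Cox4i1 also lie in the promoter of its neighbour Cox4nb, which is read from the other strand.
Cox4i1, chr19:65630133-65630432 (GRCr8, + strand): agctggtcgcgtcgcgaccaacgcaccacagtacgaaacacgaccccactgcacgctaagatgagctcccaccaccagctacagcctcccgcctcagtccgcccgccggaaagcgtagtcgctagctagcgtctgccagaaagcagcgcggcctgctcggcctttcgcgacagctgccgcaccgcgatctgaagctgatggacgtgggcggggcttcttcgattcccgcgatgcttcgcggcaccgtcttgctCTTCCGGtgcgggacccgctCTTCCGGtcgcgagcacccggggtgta
Cox8a, chr1:213833574-213833873 (GRCr8, - strand): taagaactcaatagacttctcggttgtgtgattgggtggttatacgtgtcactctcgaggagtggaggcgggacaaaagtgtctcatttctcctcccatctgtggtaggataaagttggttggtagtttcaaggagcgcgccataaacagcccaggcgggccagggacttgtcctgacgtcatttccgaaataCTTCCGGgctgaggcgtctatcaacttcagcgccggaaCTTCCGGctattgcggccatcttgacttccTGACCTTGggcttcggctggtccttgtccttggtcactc
Ndufa5, chr4:53971186-53971485 (GRCr8, - strand): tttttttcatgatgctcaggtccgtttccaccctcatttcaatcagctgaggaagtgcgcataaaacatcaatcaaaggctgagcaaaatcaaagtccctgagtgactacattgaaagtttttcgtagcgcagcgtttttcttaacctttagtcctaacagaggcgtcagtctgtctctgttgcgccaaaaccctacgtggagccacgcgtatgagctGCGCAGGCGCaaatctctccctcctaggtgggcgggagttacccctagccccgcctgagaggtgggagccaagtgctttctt
Cox6a2, chr1:192219667-192219966 (GRCr8, - strand): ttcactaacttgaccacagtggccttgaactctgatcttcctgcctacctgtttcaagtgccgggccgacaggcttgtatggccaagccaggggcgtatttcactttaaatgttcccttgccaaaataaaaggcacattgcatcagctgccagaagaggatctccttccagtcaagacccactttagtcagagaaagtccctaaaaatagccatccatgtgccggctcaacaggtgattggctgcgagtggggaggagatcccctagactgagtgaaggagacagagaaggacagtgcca

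The arrays differed in quality and shared slides unevenly. Between 52.4 and 93.6% of the spots of an array were well above background in Cy5, with the lowest share on CD 3 replicate 4. There were 5 slides, here A to E. All 6 BD 14 arrays were on slide C, with 2 of CD 14. Of the BD 3 arrays, 3 shared slide A with 3 of CD 14 and 2 shared slide B with 1 of CD 3. Slide D carried replicates 2 to 4 of CD 3, and slide E the remaining pair, 1 of CD 3 and 1 of CD 14. No slide held both BD 3 and BD 14, so within a slide these groups cannot be compared. All 8 hepatocyte markers (such as Alb and Ttr) were above background on all 22 arrays, and their mean log2 Cy5 signal lay between 14.3 and 16.1. Their mean log2 ratio was -1.62 on CD 3 replicate 4, the array with the lowest Ndufa7, Atp5b, Uqcrc1 and Cox6b2, and between -0.61 and 0.61 on the other 21. None of the tested leukocyte (5), red cell (4), bile duct (3) and stellate cell and fibroblast (5) markers passed an adjusted p of 0.05 by limma in the 4 comparisons. Before adjustment, Ptprc (1.34) and Cd68 (1.19) of the leukocyte list were higher over time on the control diet, where 4 of the 5 were higher with a median of 0.77. The red cell markers were lower in BD 3 than in CD 3 for 4 of 4 (median -0.81, 2 of them at an unadjusted p under 0.05) and higher in BD 14 than in BD 3 for 4 of 4 (median 0.71). The bile duct markers were also higher in BD 14 than in BD 3 for 3 of 3 (median 0.73, Krt19 1.02 and Epcam 0.73), with none at an unadjusted p under 0.05. Of the stellate cell and fibroblast markers, 4 of 5 were higher there, with a median of 0.14, as were 4 of 5 leukocyte markers, with a median of 0.23. Between the diets at 14 months, 5 of 5 leukocyte markers (median -0.19) and 4 of 4 red cell markers (median -0.33) were lower in BD 14. Higher there were 3 of 3 bile duct markers (median 0.29) and 4 of 5 stellate cell and fibroblast markers (median 0.13). The part of these lists in the results below was not tested, and in whole liver fewer cells of a type and less RNA per cell cannot be told apart.

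On 3 arrays the reference channel carried muscle genes. The striated muscle list of 7 genes, which includes the skeletal actin Acta1, the creatine kinase Ckm and the myosin light chain Mylpf, had a mean log2 Cy3 signal of 11.43 on BD 3 replicate 3, 11.20 on CD 14 replicate 5 and 11.00 on BD 14 replicate 4. On the other 19 arrays it was between 4.16 and 6.39. Mylpf alone read 12.99, 13.04 and 12.79 in Cy3 on these 3 arrays and at most 6.72 on the others. The same list read 7.22, 7.27 and 7.46 in the Cy5 channel of the 3 arrays, and between 4.23 and 7.09 on the others. These 3 arrays belong to 3 different groups. On 3 other arrays the reference carried pancreas genes: the mean log2 Cy3 signal of 4 pancreas markers was 7.73 on BD 3 replicate 5, 8.45 on CD 14 replicate 3 and 8.00 on BD 14 replicate 6, and between 2.10 and 4.56 on the rest. The untested Cox8c also had its highest log2 Cy3 signals there (3.65, 4.31 and 4.08, and at most 2.84 elsewhere). The part of the pancreas genes in the results was not tested.

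Cox6a2 and Cox8b, the muscle forms of complex IV, followed the reference channel. Cox6a2 had a log2 Cy3 signal of 10.86, 10.86 and 10.70 on the 3 arrays and between 2.07 and 6.07 on the other 19. Its log2 Cy5 signal on the 3 arrays was 5.43, 5.47 and 5.78, inside the range of 2.86 to 6.92 on the others. Cox8b had a log2 Cy3 signal of 9.98, 9.74 and 9.69 on the 3 arrays against 3.92 to 6.51 elsewhere, while its Cy5 signal stayed between 3.89 and 5.62 on all 22. The log2 ratio of Cox6a2 was therefore -5.43, -5.39 and -4.92 on the 3 arrays and 0.10 to 2.98 on the rest, and that of Cox8b was -4.58, -5.09 and -4.67 against -1.65 to 0.48. The liver forms did not share this: on the 3 arrays Cox6a1 read 0.02, -0.47 and -0.24, and Cox8a read 0.18, -0.43 and -0.01, all inside the range of the other 19 arrays.

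**Figure D1:**
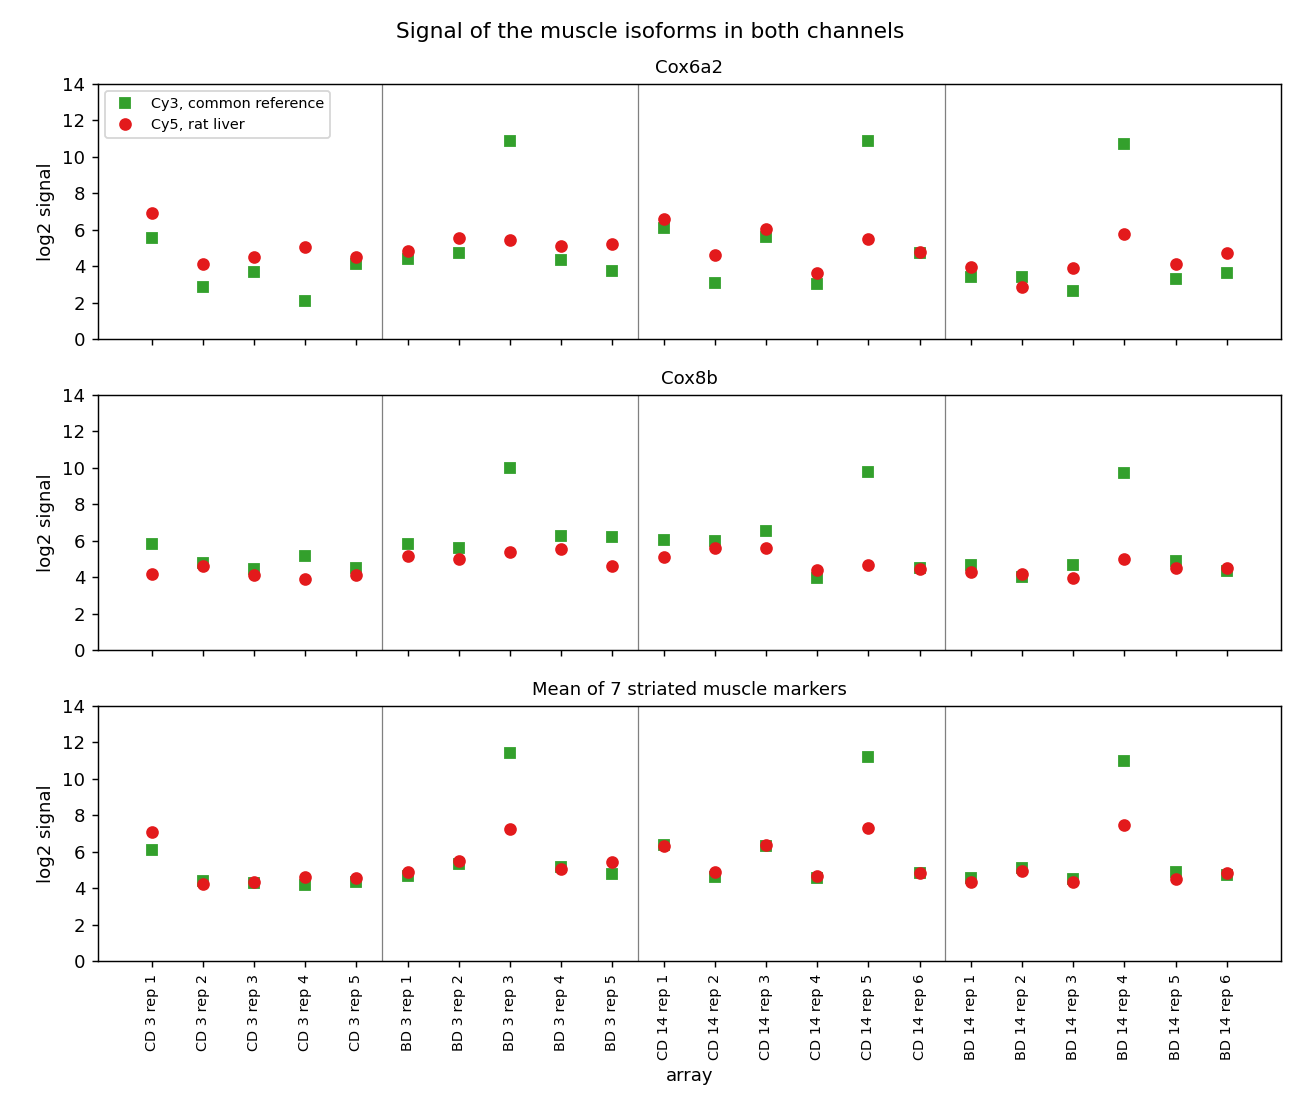
Log2 signal (y axis) of Cox6a2, of Cox8b and of the mean of 7 striated muscle markers on each of the 22 arrays (x axis, grey lines between groups), with squares for the Cy3 reference and circles for the Cy5 rat liver. In Cy3, BD 3 replicate 3, CD 14 replicate 5 and BD 14 replicate 4 stand above all other arrays in all 3 panels.

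Between the diets at 3 months and over time on the control diet, the difference of Cox6a2 was smaller without the 3 arrays. It was -1.75 ± 1.34 (SE) in BD 3 against CD 3, the largest downward difference of any gene of the set, and -0.49 without the 3 arrays. In CD 14 against CD 3 it was -1.72 with them and -0.72 without them. None of these passed the test (limma adjusted p = 0.844 and 0.701 with all arrays). Cox8b was 0.63 higher in BD 14 than in BD 3 with the 3 arrays and also without them (adjusted p = 0.892 and 0.886), but -0.11 without BD 3 replicate 3 alone. The mean log2 ratio of the 15 complex IV genes was -0.53, -0.97 and -0.75 on these arrays. Without the tissue forms (Cox4i2, Cox6a2, Cox6b2 and Cox8b) the mean of the other 11 was 0.16, -0.19 and -0.10 there.

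Among the other tissue forms, Cox4i2 and Cox6b2 were detected in all rats and Cox8c on 2 arrays. Cox4i2, the lung form of subunit 4, was above background on all 22 arrays with log2 ratios from -0.46 to 0.88. Cox6b2, the testis form of subunit 6b, was also above background on all arrays and ranged from -2.33 to -0.01, below the reference on every one. It was lowest on CD 3 replicate 4 (-2.33), CD 14 replicate 5 (-1.88) and CD 14 replicate 4 (-1.69). Cox6b1, Cox7a1 and Ndufa4l2 were not found under these names and are not analysed here. The genes Atp5g1, Atp5g2 and Atp5g3 encode the same ring subunit c of complex V, and their log2 ratios ranged from -0.69 to 0.79, from -0.57 to 0.07 and from -0.37 to 0.42.

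Most of these genes varied little from array to array. The median SD of a gene over the 22 arrays was 0.249 on the log2 scale, beside 0.539 over all 19434 probes tested. The widest were Cox6a2 (2.25), Cox8b (1.58), Ndufa7 (1.38) and Atp5b (0.89), the catalytic beta subunit of complex V. For Atp5b, CD 3 replicate 2 was at 2.06 and CD 3 replicate 4 at -2.76, while all arrays of the other groups lay between -0.68 and 0.85. Ndufs8, a core subunit of complex I, and Uqcrc1, a core protein of complex III, also had their highest and lowest values on these 2 arrays (1.39 and -0.86 for Ndufs8, 1.20 and -1.45 for Uqcrc1). On CD 3 replicate 2 the reference was low: the log2 Cy3 signals of Atp5b, Ndufs8 and Uqcrc1 (10.85, 8.78 and 10.83) were the lowest of all arrays. Their Cy5 signals there (12.92, 10.18 and 12.03) lay inside the range of the other arrays. On CD 3 replicate 4 their Cy5 signals (9.74, 9.37 and 10.31) were the lowest of all arrays.

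No gene of the set passed the threshold in any comparison. At an adjusted p of 0.05 by limma, 0 of 88 were called in each of the 4 comparisons (the BASE-diet against the control diet at each time, and 14 against 3 months on each diet), in the interaction of diet and time and in the test of any group difference. The background was 0% of the 19434 probes in the 4 comparisons and in the interaction, and 0.0257% in the test of any group. In that test 3 genes of the set had a p under 0.05 before adjustment, where 10.5% of all probes did. Tukey's HSD after an F test, as the methods describe, called without adjustment 4 genes between the diets at 3 months (2.09% of all probes), 0 between them at 14 months (0.977%), 2 over time on the control diet (3.13%) and 10 over time on the BASE-diet (2.19%). Its F test gave 15 genes with any group difference, where 10.9% of all probes had one, and after Benjamini-Hochberg adjustment 0 genes were left in each. The 95% interval of a gene's log2 difference reached, at the median gene, 0.37 to either side in BD 3 against CD 3 and 0.34 in BD 14 against CD 14. The whole interval lay within 1 on the log2 scale, a doubling, for 81 and 82 of the 88 genes.

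**Figure D2:**
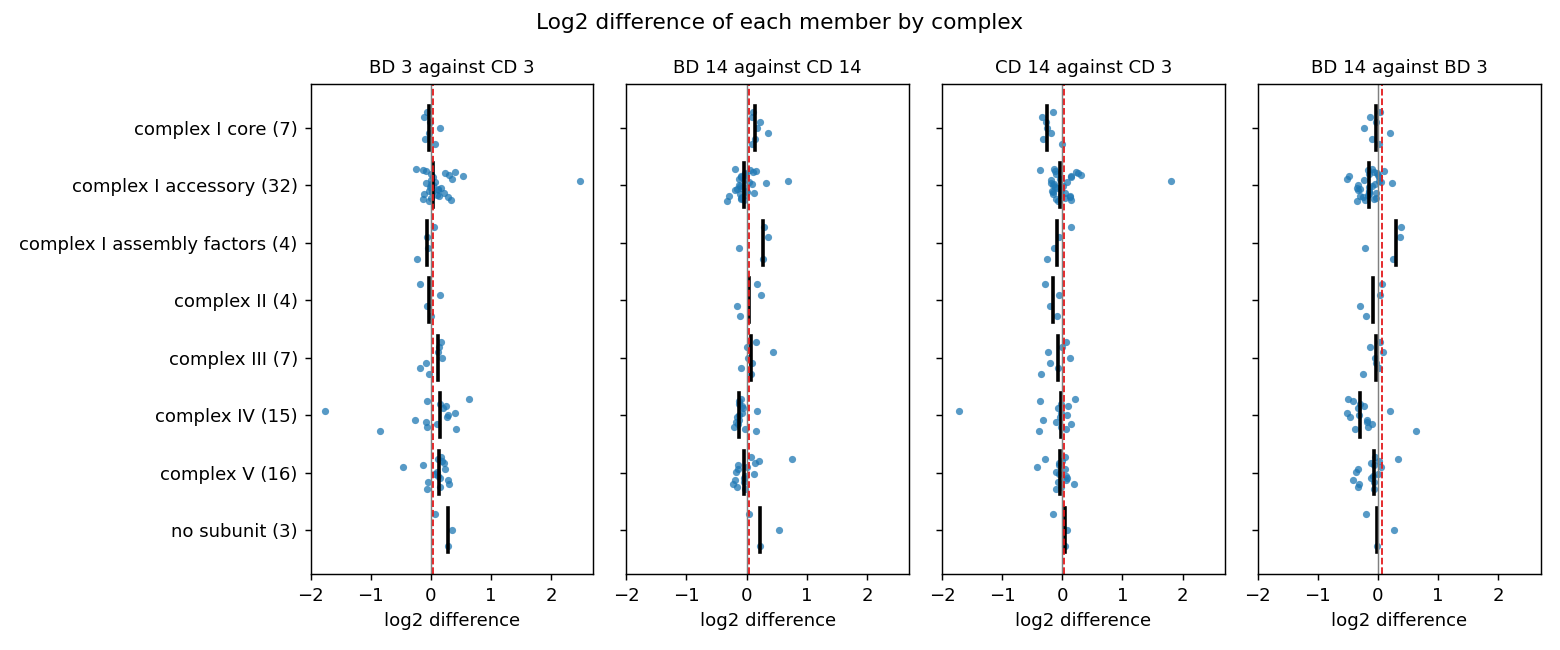
Log2 difference (x axis) of each of the 88 genes in the 4 comparisons, 1 point per gene, by complex (y axis, number of genes in brackets). Black bars are the medians of a complex, the grey line is 0 and the dashed red line is the median of all tested probes. In BD 14 against BD 3 the complex IV median lies at -0.29.

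The first question was whether the BASE-diet changed these genes within 3 months. In BD 3 against CD 3, 52 of the 88 genes were higher and 36 lower, with a median log2 difference of 0.07 beside 0.03 over all probes, of which 46.4% were lower. With slide as a block 68 were higher and 20 lower, with a median of 0.15 beside 0.15 over all probes, and without slide D 66 were higher and 22 lower, with a median of 0.12 beside 0.12. Without the 3 arrays with muscle genes in the reference the median was 0.03 beside 0.02. The rats of these groups overlapped for all 88 genes, where 0.515% of all probes were apart upward and 0.242% downward. At an unadjusted p under 0.05 there were 5 genes higher (5.68% of the set, 4.99% of all probes) and 1 lower (2.11% of all probes). Leaving out 1 array gave 3 to 9 higher, with 9 without CD 3 replicate 1, and 0 to 1 lower. With normexp background correction 10 were higher and 1 lower, and with slide as a block 3 were higher and 0 lower. By complex the medians were 0.14 for both complex IV and complex V, 0.12 for complex III (-0.10 without CD 3 replicate 4), 0.03 for the accessory and -0.02 for the core subunits of complex I, and -0.03 for complex II. The core median ran from -0.16 to 0.13 leaving out 1 array, and was above 0 without CD 3 replicate 2, CD 3 replicate 3 or BD 3 replicate 4. That of complex II ran from -0.10 to 0.08, and was above 0 without CD 3 replicate 4 or BD 3 replicate 1.

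Ndufa7, an accessory subunit of complex I, had the largest difference. Its log2 ratios were -0.96, -1.50, -3.12, -3.99 and 0.48 in CD 3, and 0.69, 1.40, 0.53, 0.59 and 0.06 in BD 3. The CD 3 rats averaged -1.82 ± 1.77 (SD, n = 5) and the BD 3 rats 0.65 ± 0.48 (SD, n = 5). All BD 3 rats lay above 4 of the 5 CD 3 rats, and CD 3 replicate 5 lay within their range. The difference was 2.47 ± 0.61 (SE, unadjusted p = 0.000525, limma adjusted p = 0.400). The gene is dim, with a median log2 Cy5 signal of 7.47 over the 19 arrays without muscle genes in the reference. Its log2 Cy5 signal was lowest on CD 3 replicates 3 and 4 (4.01 and 3.03), which also had the lowest ratios. It was 5.37 on CD 14 replicate 5 and between 6.00 and 8.20 on the other arrays. Ndufa7 was not among the 85 genes above background on all 22 arrays. Without CD 3 replicate 5 the difference was 3.05 with a limma adjusted p of 0.0134, and without the 3 CD 3 arrays of slide D it was 0.89 with an adjusted p of 0.657. The part of the slide in this difference was not tested.

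Cox4i1, the main form of complex IV subunit 4, had the next smallest p. It read 0.19, -0.91, -0.92, -0.73 and -0.36 in CD 3 and -0.01, 0.38, 0.21, -0.11 and -0.06 in BD 3. The groups overlapped through CD 3 replicate 1. The difference was 0.63 ± 0.23 (SE, limma adjusted p = 0.525) and came to 0.17 without slide D, which held the 3 lowest CD 3 rats, and to 0.08 with slide as a block. Cox8a, the liver form of subunit 8, read 0.03, -0.42, -0.43, -0.42 and -0.17 in CD 3 and 0.07, 0.33, 0.18, -0.02 and 0.10 in BD 3, a difference of 0.41 ± 0.16 (SE, limma adjusted p = 0.584) in which 1 CD 3 rat overlapped the BD 3 rats. It was 0.20 without slide D. Ndufa3 and Ndufa5, accessory subunits of complex I, read 0.53 (limma adjusted p = 0.586) and 0.35 (adjusted p = 0.684). Taken from the Cy5 signals only, they read 0.18 and 0.02, and Cox8a 0.11. Atp5f1, the b subunit of the stalk of complex V, was the only gene below an unadjusted p of 0.05 in the other direction, at -0.46 ± 0.18 (SE, limma adjusted p = 0.593), and this difference was 0.01 with slide as a block.

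**Figure D3:**
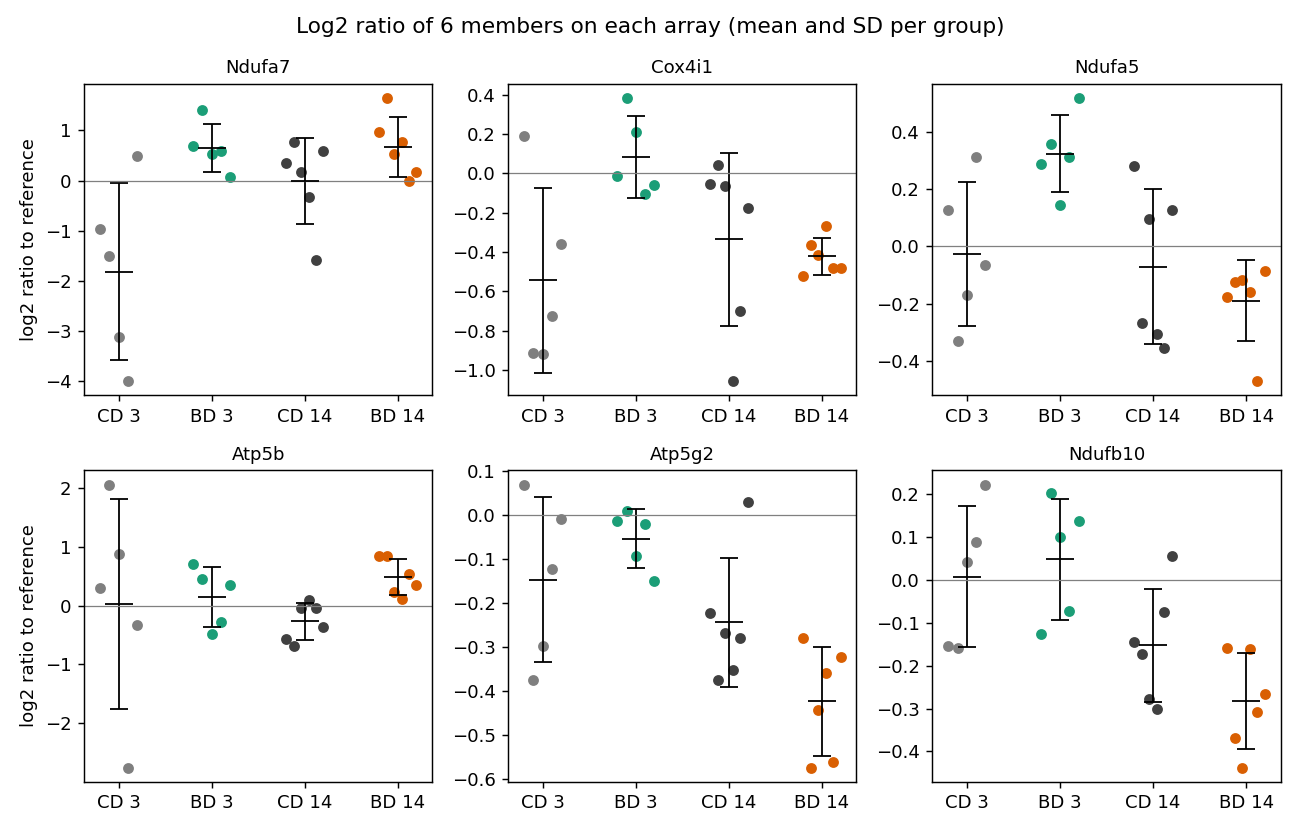
Log2 ratio to the reference (y axis, a separate scale per panel) of 6 genes on each array, by group (x axis), 1 point per rat, with the mean and SD of each group as bars. In BD 14 the 6 Ndufa5 points, the 6 Atp5g2 points and the 6 Ndufb10 points lie below all 5 points of BD 3.

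The same diets were compared after 14 months. In BD 14 against CD 14, 38 of the 88 genes were higher and 50 lower, with a median log2 difference of -0.03 beside 0.05 over all probes, of which 43.7% were lower. The median of the set was 0.00 without CD 14 replicate 6 or BD 14 replicate 3, and 0.04 with slide as a block. One gene (1.14% of the set) was higher at an unadjusted p under 0.05, where 3.79% of all probes were, and none was lower, where 0.803% of all probes were. Without the 3 arrays with muscle genes in the reference no gene was higher at that p, where 2.87% of all probes were. Leaving out 1 array gave 0 to 3 genes higher and 0 to 1 lower. With slide as a block 3 were higher and with array weights 5, with 0 lower in both. All 7 core subunits of complex I were higher (median 0.13) and all 11 complex IV genes outside the tissue forms, Cox6c-ps1 included, were lower (median -0.12), but none passed the test. With slide as a block, which for these groups rests on slide C alone, the median of all 15 complex IV genes was 0.11, in the other direction from its -0.12, and that of the core subunits was 0.09. The gene with an unadjusted p under 0.05 in the fit on all arrays was Atp5sl, which is no subunit of the synthase. Its lowest, median and highest log2 ratios were -0.15, 0.14 and 0.31 in CD 14 and 0.17, 0.66 and 0.94 in BD 14, so that the groups overlapped. It differed by 0.54 ± 0.24 (SE, limma adjusted p = 0.952), and by 0.24 in the Cy5 channel alone.

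Atp5b was the only gene of the set whose log2 ratios in CD 14 and BD 14 did not overlap (1.14% of the set, 0.653% of all probes in this direction and 0.113% in the other). Its lowest, median and highest log2 ratios were -0.68, -0.20 and 0.10 in CD 14 and 0.12, 0.45 and 0.85 in BD 14. The difference was 0.76 ± 0.49 (SE, limma adjusted p = 0.952), and 0.46 with slide as a block. The error is wide because the fit shares 1 spread over the 4 groups, and that of the CD 3 rats was large (SD 1.79, n = 5). Without slide D the adjusted p was 0.250. In the Cy5 channel alone the difference was 0.27. The log2 Cy5 signals themselves overlapped, from 12.26 to 12.72 in CD 14 and from 12.16 to 12.83 in BD 14. Sdhb, the iron-sulphur subunit of complex II, was 0.23 ± 0.13 (SE) higher and the brightest probe of Ndufv3, an accessory subunit of complex I, read -0.32 ± 0.17 (SE), both at a limma adjusted p of 0.952. The 3 probes of Ndufv3 ran from -0.32 to 0.20, so no direction is given for it. Among the assembly factors Ndufaf2 differed most, at 0.35 ± 0.31 (SE, limma adjusted p = 0.952), and 0.05 with slide as a block.

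The second question was what time did under each diet. On the control diet, in CD 14 against CD 3, 29 of the 88 genes were higher and 59 lower (67.0%), where 46.6% of all probes were lower. The median was -0.05 beside 0.03 over all probes. No gene of the set had groups apart, where 0.283% of all probes did upward and 0.232% downward. All 7 core subunits of complex I were lower, with a median of -0.25, as were all 4 genes of complex II, with a median of -0.15. The core median was 0.13 with slide as a block and 0.08 without slide D, both in the other direction, while that of complex II was -0.14 in both fits. At an unadjusted p under 0.05, 4 genes were lower (4.55% of the set, 3.29% of all probes) and 1 higher (1.14%, 6.85% of all probes). The one that was higher was Ndufa7 (1.81 ± 0.58 SE, limma adjusted p = 0.282), through the same low CD 3 rats as above. It was 2.39 without CD 3 replicate 5 (adjusted p = 0.0305) and 0.24 without slide D (adjusted p = 0.861). The count of lower genes at an unadjusted p under 0.05 was 0 to 7 leaving out 1 array. It was 0 without CD 14 replicate 1 or CD 14 replicate 2, 0 with slide as a block and 10 in the Cy5 channel alone.

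Among the 4 lower genes of the fit on all arrays were Atp5f1, Cox4i2 and Ndufv1. Ndufv1, the subunit of complex I that binds NADH, was -0.33 ± 0.15 (SE, limma adjusted p = 0.478), Atp5f1 was -0.42 ± 0.18 (SE, adjusted p = 0.424) and Cox4i2 was -0.36 ± 0.17 (SE, adjusted p = 0.478). Only slide E held both groups, with 1 rat of each, and there these 3 genes read 0.02, 0.03 and 0.02 in the other direction. With slide as a block 54 of the 88 genes were higher, and the median was 0.05 beside 0.14 over all probes.

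Under the BASE-diet most of the genes were lower after 14 months than after 3. In BD 14 against BD 3, 65 of the 88 genes were lower (73.9%), where 41.4% of all probes were, and the median was -0.12 beside 0.07 over all probes. At an unadjusted p under 0.05, 13 genes were lower (14.8% of the set, 2.68% of all probes) and none was higher, where 4.76% of all probes were. The 13 became 7 to 14 leaving out 1 array, with 7 without BD 3 replicate 3, and 8 without BD 3 replicate 2 or BD 14 replicate 3. They were Ndufa5, Ndufb10, Ndufa3 and Ndufb3 of complex I, Cox4i2, Cox8a, Cox6a1, Cox4i1 and Cox6c of complex IV, the pseudogene Cox6c-ps1, and Atp5g2, Atp5i and Atp5l of complex V. For 5 of the 88 genes (5.68%) the log2 ratios of all 6 BD 14 rats lay below those of all 5 BD 3 rats, where 1.08% of all probes did, and for none the reverse, where 1.18% did. These were Ndufa5, Atp5g2, Ndufb10, Ndufb3 and Cox4i1. The lowest adjusted p by limma was 0.402.

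Complex IV had the lowest median. All 11 of its genes outside the tissue forms were lower, with a median of -0.29 and a range from -0.51 to -0.10, and without the pseudogene Cox6c-ps1 all of the remaining 10 were, with a median of -0.27. The mean log2 ratio of the 11 was 0.06 ± 0.08 (SD, n = 5) in BD 3 and -0.23 ± 0.09 (SD, n = 6) in BD 14. The control rats averaged -0.11 ± 0.13 (SD, n = 5) after 3 months and -0.11 ± 0.15 (SD, n = 6) after 14. The latter differed by slide: the 2 CD 14 arrays on slide C, beside all BD 14 arrays, read -0.33 and -0.19, those on slide A read -0.12, -0.10 and -0.01, and that on slide E read 0.09. No BD 14 mean reached the lowest BD 3 mean of -0.03, the highest being -0.10. The medians were -0.15 for the accessory and -0.03 for the core subunits of complex I, -0.08 for complex II, -0.03 for complex III and -0.07 for complex V, and 0.30 for the 4 assembly factors, of which 3 were higher. Those of the core subunits and of complex III were 0.03 and 0.01 without BD 3 replicate 2, and that of complex III was 0.01 without BD 14 replicate 3. The largest difference in complex III was that of Uqcrq, a small subunit, at -0.25 ± 0.18 (SE, limma adjusted p = 0.766), and -0.04 in the Cy5 channel alone.

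**Figure D4:**
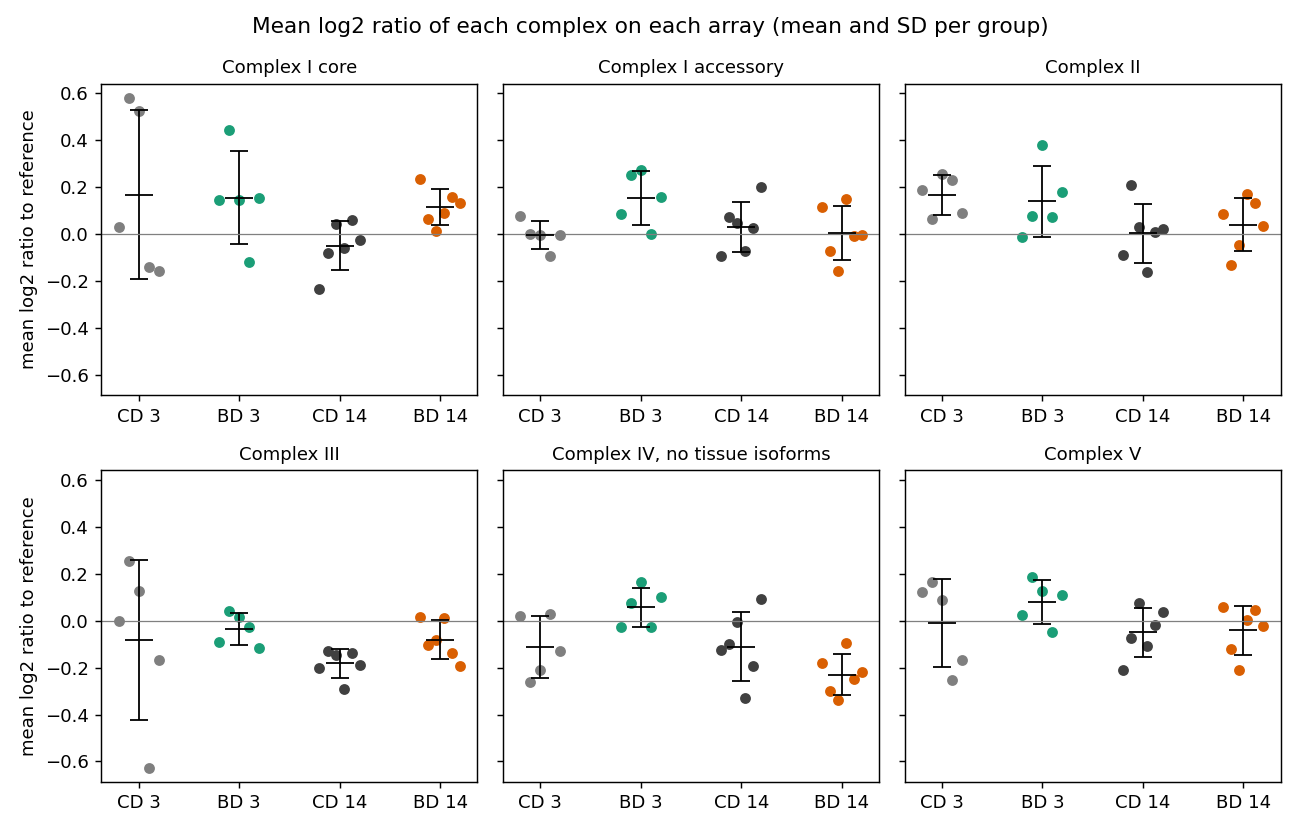
Mean log2 ratio to the reference (y axis) over the tested genes of a complex on each array, by group (x axis), 1 point per rat, with the mean and SD of each group as bars. Complex IV without its tissue forms has its highest group mean in BD 3 (0.06) and its lowest in BD 14 (-0.23), with both control groups at -0.11.

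Ndufa5, an accessory subunit in the arm of complex I that takes up electrons, had the smallest p. It read 0.29, 0.36, 0.15, 0.31 and 0.52 in BD 3, and its lowest, median and highest values in BD 14 were -0.47, -0.14 and -0.09. All BD 3 rats were above 0 and all BD 14 rats below it. The difference was -0.51 ± 0.16 (SE, unadjusted p = 0.0038, limma adjusted p = 0.402). It was -0.23 in the Cy5 channel alone and -0.10 with slide as a block. Atp5g2 read -0.01, 0.01, -0.09, -0.02 and -0.15 in BD 3 against -0.57, -0.40 and -0.28 (lowest, median and highest) in BD 14, a difference of -0.37 ± 0.13 (SE, limma adjusted p = 0.502). It was -0.22 in the Cy5 channel alone, and its second probe gave -0.29.

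Ndufb10 and Ndufb3, accessory subunits in the membrane arm of complex I, had BD 3 values from -0.13 to 0.20 and from 0.17 to 0.36, and BD 14 values from -0.44 to -0.16 and from -0.22 to 0.06. Neither pair of groups overlapped. The differences were -0.33 ± 0.13 (SE) and -0.35 ± 0.15 (SE), with limma adjusted p of 0.574 and 0.608. That of Ndufb3 was -0.16 with slide as a block. Cox4i1 had BD 3 values from -0.11 to 0.38 and BD 14 values from -0.52 to -0.27, a difference of -0.51 ± 0.22 (SE, limma adjusted p = 0.611). With slide as a block it was 0.45, in the other direction. Atp5i, the e subunit of complex V, and Cox6c-ps1, the pseudogene of Cox6c, were -0.42 ± 0.15 (SE, limma adjusted p = 0.509) and -0.47 ± 0.16 (SE, adjusted p = 0.489). Atp5i was -0.17 with slide as a block, and Cox6c-ps1 was -0.12 in the Cy5 channel alone. The probe of Cox6c itself, which shares a run of 9 bases with that of the pseudogene, gave -0.31.

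Since BD 3 and BD 14 shared no slide, the fit with slide as a block compared them only through the control rats on the same slides. There 54 of the 88 genes were lower, the median was -0.08 beside 0.00 over all probes, the complex IV median was -0.05, and none of the 88 passed p under 0.05 even before adjustment, where 4.64% of all probes did in either direction. Slide and time cannot be told apart within the BASE-diet groups. Without the 3 arrays with muscle genes in the reference the median was -0.11, and 7 genes had an unadjusted p under 0.05, all lower, where 1.7% of all probes were.

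Whether the diet difference itself changed with time was tested by the interaction. It passed the threshold for none of the 88 genes (limma, smallest adjusted p = 0.998), and was below 0 for 55 of them, where 47.6% of all probes were. Before adjustment, at p under 0.05, 6 genes were lower (6.82% of the set, 2.32% of all probes) and none was higher, where 2.48% of all probes were. The interaction was -0.71 for Cox4i1, -0.63 for Ndufa3, -0.48 for Atp5i, -0.47 for Ndufa5, -0.52 for Atp5j2, the f subunit of complex V, and -1.79 for Ndufa7. For these 6 genes BD 3 was above CD 3, while BD 14 was below CD 14 for Cox4i1, Ndufa3, Atp5i, Ndufa5 and Atp5j2 and above it for Ndufa7. Without the 3 CD 3 arrays of slide D the interaction was -0.25 for Cox4i1, -0.40 for Ndufa3, -0.53 for Atp5i, -0.41 for Ndufa5, -0.25 for Atp5j2 and -0.21 for Ndufa7, and 1 gene (Atp5i) had an unadjusted p under 0.05. With slide as a block Cox4i1 and Ndufa7 were in the other direction, at 0.38 and 0.32, and Atp5j2 was -0.02. In the Cy5 channel alone Ndufa5 was in the other direction, at 0.06, and Atp5i was -0.06. Leaving out 1 array gave 1 to 9 genes lower, with 1 without CD 3 replicate 2, CD 3 replicate 3, BD 3 replicate 2 or BD 14 replicate 3. It gave 0 to 2 genes higher, with 2 without CD 3 replicate 1 or CD 3 replicate 4. In the Cy5 channel alone 40 of the 88 genes were below 0, with 3 lower and 2 higher at an unadjusted p under 0.05. With array weights 45 were below 0 (8 lower and 1 higher at that p). With slide as a block it was 61 (3 lower, none higher), and with normexp background correction 56 (12 lower, none higher).

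Of the genes that work beside the subunits, none passed the threshold either. The lists held 7 electron carriers and subunits outside the name rule (7 tested), 29 assembly factors (20 tested), 13 regulators (12 tested), 9 exchange and uncoupling proteins (7 tested) and 13 citric acid cycle enzymes (13 tested). The 13 genes of the mitochondrial DNA were not found under their names. Ucp2, an uncoupling protein homologue, was 1.18 higher in CD 14 than in CD 3 (limma adjusted p = 0.152) and 0.69 higher in BD 3 than in CD 3 (limma adjusted p = 0.586). Cyc1, the cytochrome c1 of complex III, was -0.63 in CD 14 against CD 3 (adjusted p = 0.242) and -0.45 in BD 3 against CD 3 (adjusted p = 0.631). Nrf1, the factor whose letters were counted above, was -0.79 and -0.76 in the same comparisons (adjusted p = 0.207 and 0.400). Cox11, which delivers copper to complex IV, was -0.56 and -0.71 (adjusted p = 0.300 and 0.400). These differences share the CD 3 rats. Without slide D they were 0.69 and 0.20 for Ucp2, -0.28 and -0.10 for Cyc1, -0.39 and -0.36 for Nrf1, and -0.38 and -0.52 for Cox11, and with slide as a block Cyc1 read 0.14 in BD 3 against CD 3. The regulators as a list did not follow Nrf1. In BD 3 against CD 3, 8 of the 12 were higher (median 0.11). There 2 were higher and 1 lower at an unadjusted p under 0.05, where 4.99% and 2.11% of all probes were. In CD 14 against CD 3, 6 were higher and 6 lower (median -0.03). Over time on the BASE-diet, 14 of the 20 assembly factors and 7 of the 13 cycle enzymes were lower, with medians of -0.12 and -0.08, where 41.4% of all probes were lower. On the control diet it was 17 of the 20 and 6 of the 13, with medians of -0.13 and 0.01, where 46.6% of all probes were lower. Without slide D the assembly factors were lower for 8 of 20 in CD 14 against CD 3, with a median of 0.04. With slide as a block they were lower for 10 of 20 in BD 14 against BD 3 and 6 of 20 in CD 14 against CD 3, and the cycle enzymes for 3 of 13 in BD 14 against BD 3. Between the diets, 10 of the 13 cycle enzymes were higher in BD 3 (median 0.14) and 11 in BD 14 (median 0.15). Of the 20 assembly factors 7 were higher in BD 3 (median -0.04) and 12 in BD 14 (median 0.08). Of all probes 46.4% and 43.7% were lower in these comparisons.

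Several genes were read by more than 1 probe. Of the 19 such genes, 18 had at least 2 tested probes. Among these the probes differed in sign for 7 genes in BD 3 against CD 3, 7 in BD 14 against CD 14, 6 over time on the control diet and 3 over time on the BASE-diet. Ndufaf4, an assembly factor of complex I with 4 probes, had the widest range, from -0.23 for the brightest probe to 1.05 in BD 3 against CD 3, and no direction is given for it. Ndufa10, Ndufb4, Atp5h and Cox6c have near copies on the array (Ndufa10l1, Ndufb4l1, Atp5hl1 and Cox6c-ps1), and their probes share runs of at most 5, 5, 7 and 9 bases. Binding of one RNA to the probe of the other was not tested, so each is uncertain.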

How the data were processed

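Liver RNA of 22 rats was measured on 22 Agilent 2-colour rat arrays. The authors scanned the arrays and extracted the spots with Feature Extraction (10.7.3.1 per the labels, 10.10.1.1 per the file headers), which subtracts background and corrects the dyes. The deposited ratio is the log10 of Cy5 over Cy3, and the deposited intensity columns hold the signal of each channel on a linear scale. A series table that listed only entries selected as significant was not used. Probe positions are of build rn4, and promoters are RefSeq sequences of GRCr8.

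Ratios were turned to log2, control spots and those marked non-uniform were dropped, and repeated spots of a probe averaged, with no scaling between arrays. In 2 files with older gene names, names were taken by probe from the others. A probe entered the test where, in some group, each array showed a share of 0.5 or more of its spots well above background in the rat channel. That kept 19434 probes of 17079 genes. Each gene was read from its brightest probe. Group means were fitted with limma 3.58.1 (R 4.3.3) with Benjamini-Hochberg adjustment over all tested probes and a threshold of 0.05, and the script was tested on simulated data. Tables and plots were made with Python 3.11.15 (numpy 2.4.6, pandas 2.3.3, matplotlib 3.10.9).

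The genes, lists and tests were chosen with earlier results of these data known. The genes named are, in each of the 4 comparisons, the 3 with the smallest p, the one with the largest difference in each complex and those whose groups did not overlap, and the tissue forms, and 1 gene that this rule names is not reported here. Others, such as the rest of the genes under an unadjusted p of 0.05, were named after their values were seen. Alternatives were background correction with normexp (offset 50) and loess, median centring, the Cy5 channel alone, array weights, the filter, all probes of a gene, slide, the replicate number as a block, Tukey's HSD after an F test as in the methods, and leaving out each array. The number of arrays limits the precision. Each array is labelled as a separate rat.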

Additional observations from a re-analysis of the deposited data

Results flagged for a closer look

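A lone array stood apart in 15 of 176 groups of values checked with Dixon's test, which flags about 1 in 20 by chance. Most were the arrays with muscle genes in the reference, BD 3 replicate 3, CD 14 replicate 5 and BD 14 replicate 4. On these, in this order, Cox6a2 read -5.43, -5.39 and -4.92 on the log2 ratio scale, Cox8b read -4.58, -5.09 and -4.67, and the mean of the complex IV genes was -0.53, -0.97 and -0.75.

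In the reference channel, which enters the comparisons only through the ratio, the log2 Cy3 signal of Cox6a2 on these arrays was 10.86, 10.86 and 10.70, and that of Cox8b was 9.98, 9.74 and 9.69, above all other arrays.

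Cox7a2, a subunit 7a form of complex IV, stood apart at -0.20 on BD 3 replicate 1, 0.58 on CD 14 replicate 6 and -0.30 on BD 14 replicate 5. Ndufa5 was at -0.47 on BD 14 replicate 5, Ndufaf4 at -0.63 on BD 3 replicate 3, and Sdhb at -0.12 on BD 3 replicate 4.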

How the results depend on the processing

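The count of genes past the threshold was 0 in each comparison, and it was 1 (Ndufa7) without CD 3 replicate 5 between the diets at 3 months, over time on the control diet and in the test of any group, so that leaving out 1 array gave 0 to 1. Tukey's HSD after an F test, as in the methods and unadjusted, gave 15 genes in any group (10.9% of all probes), 4 between the diets at 3 months (2.09%), 2 over time on the control diet (3.13%) and 10 over time on the BASE-diet (2.19%), and 0 after adjustment. The median of CD 14 against CD 3 was -0.16 in the Cy5 channel alone, 0.047 with slide as a block and 0.19 within slide E. Slide as a block moved the median of all probes from 0.03 to 0.15 in BD 3 against CD 3 and from 0.03 to 0.14 in CD 14 against CD 3. The cause of these changes was not tested.

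The slide block turned the direction of 40 of the 88 genes between the diets at 3 months, 35 between the diets at 14 months, 37 over time on the control diet and 29 over time on the BASE-diet. The Cy5 channel alone turned 21, 34, 25 and 29 in the same order. Within slide E, 52 were turned over time on the control diet. Values are given only for genes that the rule names in a comparison or with an unadjusted p under 0.05 there. Among them, those that changed direction in BD 3 against CD 3 included Atp5f1 (0.013 with slide as a block), Cox4i1 (-0.0029 within slide B), Uqcrh (0.12 with slide as a block, 0.16 without slide D, 0.029 within slide B), Ndufs7 (-0.0097 without CD 3 replicate 4) and Ndufaf4 (1.01 with slide as a block, 0.35 over all its probes, -0.64 to 0.046 leaving out 1 array, the highest without CD 3 replicate 4, 0.54 without slide D, 1.51 within slide B). In BD 14 against CD 14 they included Cox7c (0.28 in Cy5 alone). In CD 14 against CD 3 they included Cox6a2 (0.38 with slide as a block), Atp5s (0.57 with slide as a block, -0.43 to 0.0068 leaving out 1 array, the highest without CD 3 replicate 4, 0.20 without slide D, 0.31 within slide E), Ndufaf4 (0.77 with slide as a block, 0.28 over all its probes, -0.66 to 0.018 leaving out 1 array, the highest without CD 3 replicate 4, 0.51 without slide D, 0.11 within slide E) and, within slide E, Ndufv1 (0.023), Atp5f1 (0.030) and Cox4i2 (0.015). In BD 14 against BD 3 they included, with slide as a block, Cox4i1 (0.45), Cox8a (0.19), Ndufa3 (0.011), Ndufaf1 (-0.49) and Ndufs7 (0.18), and in Cy5 alone Atp5sl (-0.017), Cox8b (-0.078, and -0.11 to 1.37 leaving out 1 array, the lowest without BD 3 replicate 3) and Sdhc (0.14).

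Leaving out the arrays of slide D, those with muscle genes in the reference, or the pseudogenes was chosen after seeing the data, as were the fits by slide of the other lists. Without the pseudogenes the medians were 0.07, -0.03, -0.05 and -0.11 in the 4 comparisons. The replicate numbers did not pair the rats: of 31 pairs with the same number the correlation of deviations ran from -0.272 to 0.286, 8 were over 0.1, and 5 of 22 arrays correlated best with their own number. With the replicate block the medians were 0.07, -0.03, -0.08 and -0.14 in the 4 comparisons.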
